A study of Mus musculus with 10 samples.

Results

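The carboxylesterase genes examined here are 10 paralogs of mouse chromosome 8: 6 of the Ces1 subfamily (Ces1b, Ces1c, Ces1d, Ces1e, Ces1f and Ces1g), 2 of the Ces2 subfamily (Ces2a and Ces2e) and both Ces3 genes (Ces3a and Ces3b). They were matched by gene symbol among the 55421 genes of the count table, of which 22449 had at least 10 counts over all livers and were tested, and all 10 passed that filter. The genes were chosen by their fold change between knockout and control livers, which was known from an earlier analysis of these counts. Their knockout values are therefore given as a description: no p is printed for them, and counts of genes past a threshold only describe the table. Another 10 carboxylesterase genes in the table were not among those chosen and are given for comparison.

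Bulk polyA RNA-seq was made from the livers of 10 male mice, each injected retro-orbitally with AAV8 virus at 6 months of age and analysed 3 weeks later. The H3.3 KO livers (n = 4) carried floxed H3f3a and H3f3b, the genes that encode histone H3.3, and received Tbg-Cre. One control set was wildtype mice that received Tbg-Cre (WT Tbg-Cre, n = 3). The other was H3f3a fl/fl, H3f3b fl/fl C57BL/6 mice, with the same floxed alleles as the KO livers. They received Tbg-MCS, a virus without Cre (floxed Tbg-MCS, n = 3). The paper states no difference in strain between the groups. The genotype field of the floxed samples reads HIRA fl/fl, whereas the series design names the H3f3a and H3f3b alleles, and the counts bear on this as follows. H3f3a was between 59.9 and 63.7 CPM (read counts scaled to the normalised library size) in the 6 controls and between 16.0 and 19 CPM in the KO livers, and H3f3b was between 136 and 204 CPM in the controls and between 39.8 and 56.7 CPM in the KO livers. The Tbg promoter drives Cre in hepatocytes, so other liver cells were not targeted. Library totals ranged from 14998426 counts in KO liver 1 to 26096141, and the 9 other libraries held at least 20862860.

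Carboxylesterases are serine hydrolases that cleave ester and amide bonds, in drugs and other foreign compounds and in the body's own lipids. Most mouse members sit in the lumen of the endoplasmic reticulum of hepatocytes, where some of them mobilise stored triacylglycerol for lipoprotein assembly, and Ces1c is secreted into plasma. The genes arose by tandem duplication, so neighbours on the chromosome are close in sequence.

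In the GRCm38 (mm10) assembly the Ces1 genes and Ces5a lay in a block of 515.6 kb at chr8:93020214-93535830 on the minus strand, with 9 carboxylesterase genes, 6 of them chosen. The Ces2, Ces3 and Ces4a genes lay in a second block of 416.1 kb at chr8:104734003-105150109 on the plus strand, with 11 carboxylesterase genes, 4 of them chosen. Coding sequences were 71.31 to 95.27% identical over the 17 pairs within a subfamily, with a median of 77.11%, and 52.41 to 57.18% over the 28 pairs between subfamilies. The closest pair was Ces3a and Ces3b at 95.27%, followed by Ces1b and Ces1c at 88.77%. Such identity bears on every value that follows, since a read that fits 2 paralogs equally well has no single gene of origin.

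The coding part of exon 5 of 13 in Ces3a (chr8:105051468-105051621, plus strand) and in Ces3b (chr8:105086558-105086711, plus strand) is shown because it holds the longest identical stretch of the pair, 138 bases. Over 154 coding bases the exons had 1 mismatch, T139G (the Ces3a base, the position counted from 1 at the first base of the exon, and the Ces3b base), which stands in capitals.
Ces3a exon 5: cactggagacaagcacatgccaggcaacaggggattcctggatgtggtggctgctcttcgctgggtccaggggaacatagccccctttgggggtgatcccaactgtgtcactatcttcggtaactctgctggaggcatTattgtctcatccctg
Ces3b exon 5: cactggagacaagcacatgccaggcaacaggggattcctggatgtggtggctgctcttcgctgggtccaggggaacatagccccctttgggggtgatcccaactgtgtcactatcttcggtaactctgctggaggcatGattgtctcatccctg

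The coding part of the last exon of Ces1b (exon 14 of 14, chr8:93056890-93057070, minus strand) and of Ces1c (exon 13 of 13, chr8:93099168-93099348, minus strand) is shown for the same reason, with an identical stretch of 118 bases. Over 181 coding bases the 4 mismatches T19G, A47C, G166A and G171C stand in capitals, with the Ces1b base first.
Ces1b last exon: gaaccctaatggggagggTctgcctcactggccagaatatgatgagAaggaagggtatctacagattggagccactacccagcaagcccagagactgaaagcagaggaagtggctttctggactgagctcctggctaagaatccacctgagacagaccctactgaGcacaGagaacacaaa
Ces1c last exon: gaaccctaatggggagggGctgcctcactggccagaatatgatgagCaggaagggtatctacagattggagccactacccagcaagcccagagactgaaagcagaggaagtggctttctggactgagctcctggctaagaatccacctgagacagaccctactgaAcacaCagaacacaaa

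How much of each transcript could not be assigned to 1 gene was measured by cutting all annotated transcripts into overlapping windows and counting those that also occur in another gene. With windows of 75 bases, 15.4% of Ces3b and 15.1% of Ces3a were shared, all with each other. Ces2a shared 11.4% with the gene model Gm7208, and Ces1c and Ces1b shared 5.08% and 4.50%, for Ces1b all with Ces1c. The other 5 genes shared between 0 and 0.96%. With windows of 50 bases the shared part rose to 26.2% for Ces3b, 25.6% for Ces3a and 11.6% for Ces1b, and with windows of 100 bases it fell to 7.04%, 6.88% and 1.29%. The read length is not given in the sources used here, so the window that matches the reads is not known.

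Levels can be compared between genes only per unit of transcript length, for which the deposited FPKM values, which the authors scaled to transcript length and library depth, were used. In the 6 control livers Ces1c was highest at 1314 ± 198 FPKM (SD, n = 6), with no overlap with the next gene, Ces3a, at 794 ± 103 FPKM. Ces3a in turn did not overlap Ces1d, at 328 ± 137 FPKM. From Ces1d the livers' ranges of neighbours overlapped all the way down through Ces1f (238 ± 30.9), Ces3b (158 ± 64.3), Ces2a (146 ± 15.7), Ces2e (140 ± 34.7), Ces1e (91.1 ± 10.4) and Ces1g (85.6 ± 10.5). Ces1b was lowest at 43.5 ± 7.71 FPKM, below every liver's value of Ces1g. In the KO livers Ces1c, Ces3a, Ces1d and Ces1f kept ranks 1 to 4, whereas Ces3b went from rank 5 to rank 10. Ces3b (13.1 to 20.4 FPKM) overlapped Ces1b (13.0 to 26.3 FPKM) there. In FPKM it was the higher of the 2 in KO livers 2 to 4, so KO liver 1 set the last rank. FPKM and counts differed most for these 2 genes, as given below. On the counts Ces3b exceeded Ces1b only in KO liver 2 (8.62 against 8.03 CPM). That is before any allowance for its greater exonic length (2565 against 1964 bases).

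The 10 genes together held 7330 to 8034 CPM in the 6 controls and 3754 to 5531 CPM in the 4 KO livers, and the groups did not overlap. In bulk tissue, fewer hepatocytes and less RNA per hepatocyte cannot be told apart. Among 12 hepatocyte markers, 10 were lower in KO than in the 6 controls at an adjusted p under 0.05 and none was higher (edgeR). Over all genes tested, 16.6% were lower and 19.7% higher, which applies to each marker list here. Apob and Cps1 did not pass and had log2 fold changes above 0 (0.24 ± 0.12 and 0.22 ± 0.24). The drop differed by control set, with a median log2 fold change of -0.40 against WT Tbg-Cre and -0.90 against floxed Tbg-MCS. Over all genes these medians were 0.016 and 0.0062. At the adjusted p alone 4 were lower against WT Tbg-Cre and 10 against floxed Tbg-MCS (edgeR). The shares of all genes were not taken for those 2 contrasts. The sum of the 12 was 87769 to 103733 CPM in KO, 114974 to 126381 CPM in WT Tbg-Cre and 139148 to 161147 CPM in floxed Tbg-MCS livers. Most of that sum was Alb, at 61393 to 75941 CPM in KO against 83710 to 118201 CPM. All 6 Kupffer cell markers were higher, with a sum of 554 to 1237 CPM in KO against 240 to 437 CPM, as were all 6 stellate cell markers and 5 of 6 lymphocyte markers. Of 6 cholangiocyte markers 1 was higher, and none of 5 endothelial markers passed. No marker of these lists was at 0 in every control liver. The part of these cell types in the carboxylesterase values was not tested.

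**Figure D1:**
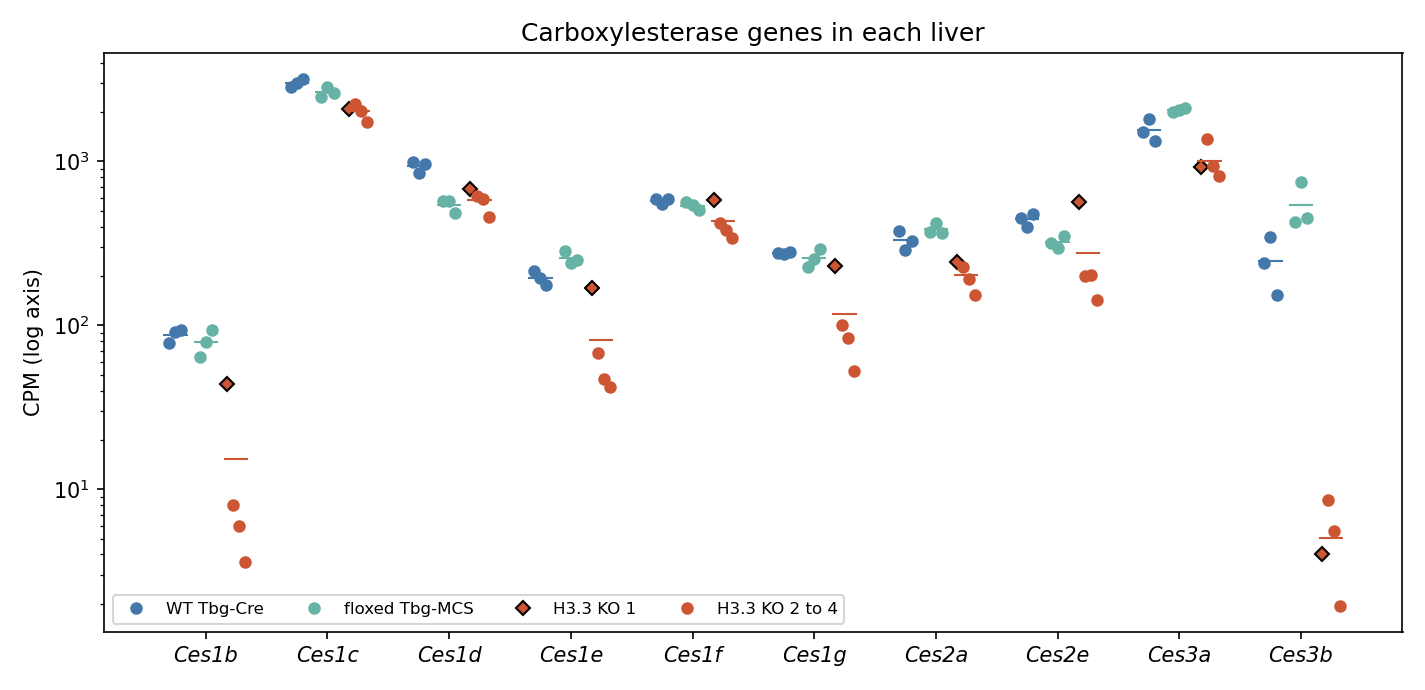
CPM of each carboxylesterase gene (log axis) in every liver, coloured by group, with a short bar at each group mean and a diamond for KO liver 1. Ces3b lies at 1.95 to 8.62 CPM in the KO livers against 154 to 753 CPM in the controls, and Ces1b separates KO liver 1 (43.9 CPM) from the other KO livers (3.60 to 8.03 CPM).

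Against the 6 controls, all 10 fold changes were below 0 on the log2 scale, with a median of -0.83 beside -0.0030 over all genes tested. Ces1b, Ces1e, Ces1g and Ces3b met the threshold for a call (adjusted p below 0.05, log2 fold change beyond 1 either way), which is 4 of 10 beside 5.79% of all genes called lower. At the adjusted p alone 7 of 10 were lower, beside 16.6% of all genes, and Ces1d, Ces1f and Ces2e were not. Every KO liver was below every control for 5 of 10 (Ces1b, Ces1c, Ces1e, Ces2a and Ces3b), beside 12% of all genes. Since this contrast chose the genes, nothing is read from these shares.

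Of the Ces3 pair, Ces3b (chr8:105083753-105093929) had the largest fold change. Ces3b was at 240, 346 and 154 CPM in the WT Tbg-Cre livers, 427, 753 and 450 CPM in the floxed Tbg-MCS livers, and 4.04, 8.62, 5.56 and 1.95 CPM in KO livers 1 to 4. All 4 KO livers were far below the lowest control, and KO liver 1 was among them. The KO values rest on 62, 218, 132 and 51 counts. The KO mean was 1.28% of the control mean, a log2 fold change of -6.28 ± 0.64 (SE).

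Ces3a (chr8:105048601-105058413), the more abundant of the pair, was at 1517, 1827 and 1324 CPM in the WT Tbg-Cre livers, 2014, 2050 and 2115 CPM in the floxed Tbg-MCS livers, and 919, 1364, 933 and 814 CPM in the KO livers. KO liver 2 lay above the lowest control, and the other 3 lay below all controls. Its log2 fold change was -0.84 ± 0.18, so the KO mean was 55.7% of the control mean. Ces3b made up 17.0 ± 5.54% (SD, n = 6) of the counts of the pair in controls and 0.474 ± 0.177% (n = 4) in KO.

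The deposited FPKM gave a smaller difference for Ces3b than the counts did. Ces3b was at 80.7 to 269 FPKM in the controls and at 13.1, 20.4, 15.8 and 15.4 FPKM in KO livers 1 to 4, and its share of the pair's FPKM was 16.1 ± 4.19% in controls and 3.25 ± 0.330% in KO. On log2(FPKM + 1) its fold change was -3.13 ± 0.27, against -6.28 on the counts. The FPKM value per CPM was 8.00 times as high in KO as in controls for Ces3b and 2.10 times for Ces1b, whereas it was 1.10 to 1.15 times for the other 8 genes.

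Gm7208, the gene model that shared sequence with Ces2a, also read differently in the 2 files. It was at 0.503 to 1.00 CPM in the controls and 43.5 to 60.5 FPKM in the same livers, and at 0.158 to 0.456 CPM and 20.6 to 29.8 FPKM in KO. How either file treated reads that fit several genes is not given in the sources used here, and the part of shared reads in these differences was not tested. Both files place Ces3b lower in every KO liver than in every control.

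**Figure D2:**
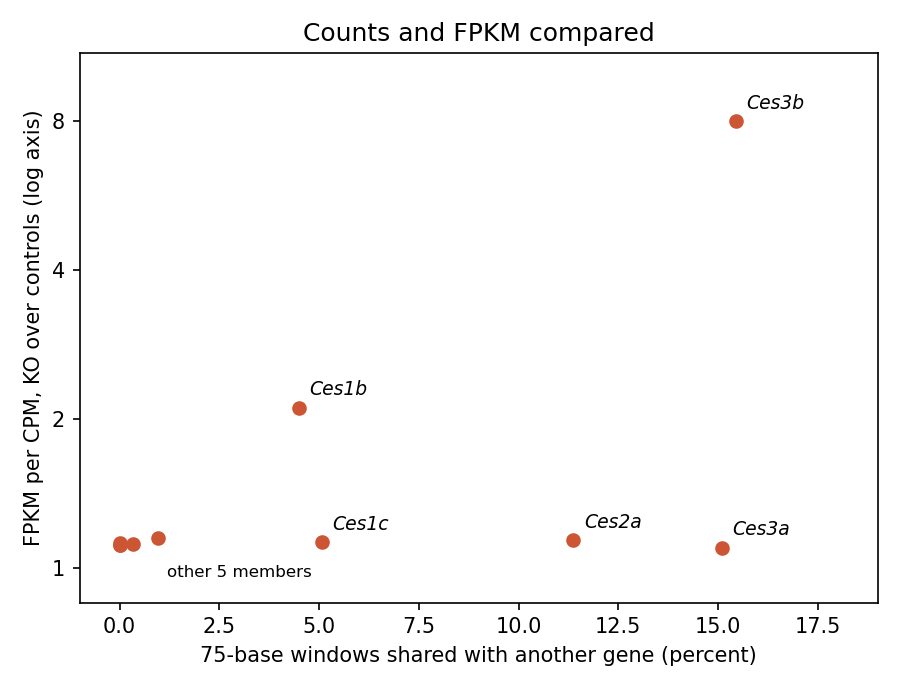
For each carboxylesterase gene, the percent of its 75-base windows shared with another gene (x axis) and the ratio of FPKM to CPM in KO over the same ratio in controls (y axis, log). Ces3b (8.00) and Ces1b (2.10) stand above the other 8 genes, which lie between 1.10 and 1.15 and share 0 to 15.1% of windows. The part of shared reads in the ratio was not tested.

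Counts were also summed over each subfamily, so that a read moved from one listed member to another leaves the sum as it was. Reads that were not counted at all would be missing from the sum too. The Ces3 sum was at 1479 to 2802 CPM in the controls and 815 to 1372 CPM in KO, without overlap, with a log2 fold change of -1.12 ± 0.20 and a KO mean of 45.9% of the control mean. The Ces1 sum was at 4202 to 5277 CPM in the controls and 2642 to 3805 CPM in KO, also without overlap, with -0.53 ± 0.13 and 69.4%. The Ces2 sum was at 687 to 827 CPM in the controls and at 805, 425, 393 and 295 CPM in KO livers 1 to 4, with -0.63 ± 0.22 and 64.8%, and here KO liver 1 lay within the control range. No p is given for these sums, because the members were chosen by the same contrast.

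**Figure D3:**
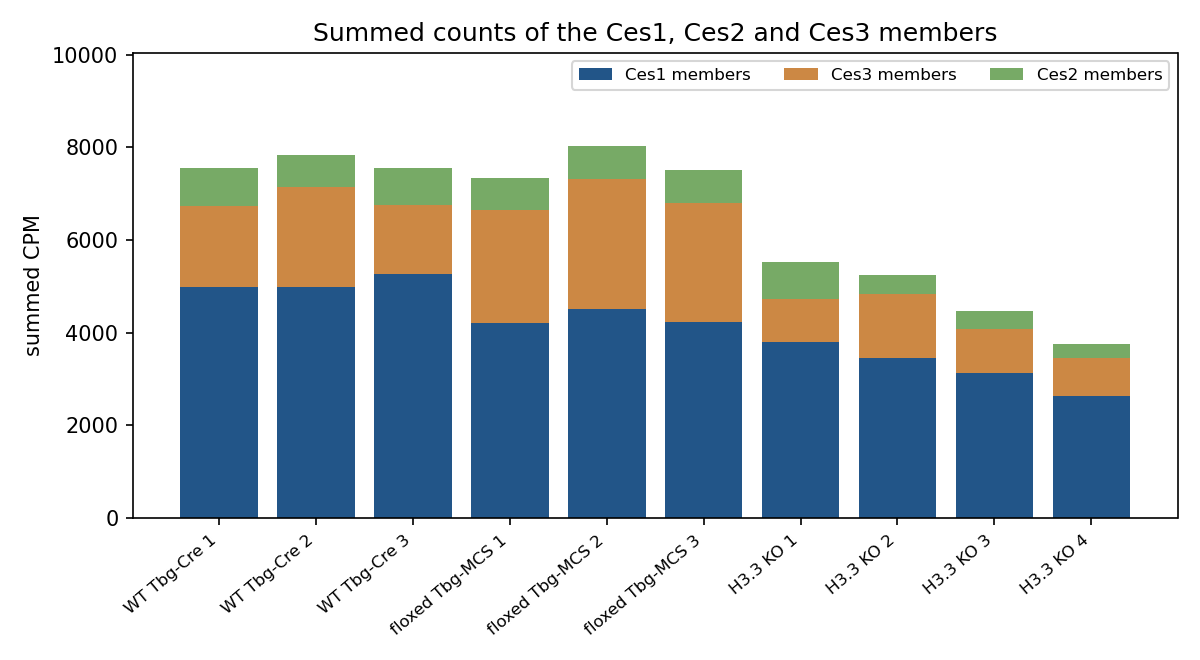
Summed CPM of the chosen Ces1, Ces3 and Ces2 genes stacked for each of the 10 livers, from 0. The whole stack is 7330 to 8034 CPM in the controls and 3754 to 5531 CPM in KO, and the Ces3 layer shrinks to 815 to 1372 CPM.

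Within the Ces1 block, Ces1b (chr8:93056728-93080017) had the largest fold change. Ces1b was at 77.9, 90.9 and 93.8 CPM in the WT Tbg-Cre livers, 64.2, 79.3 and 93.2 CPM in the floxed Tbg-MCS livers, and 43.9, 8.03, 5.98 and 3.60 CPM in KO livers 1 to 4. All KO livers lay below the controls, but KO liver 1 was at 52.7% of the control mean and the other 3 at 4.32 to 9.65%. The log2 fold change was -2.46 ± 0.69, and -3.83 ± 0.25 without KO liver 1. In FPKM the same livers read 34.2 to 54.9 in the controls and 26.3, 14.7, 13.6 and 13.0 in KO.

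Ces1e (chr8:93201218-93229619) encodes egasyn, which holds beta-glucuronidase in the endoplasmic reticulum. Its level was 215, 195 and 175 CPM in the WT Tbg-Cre livers, 283, 239 and 250 CPM in the floxed Tbg-MCS livers, and 169, 68.0, 47.0 and 41.8 CPM in the KO livers. KO liver 1 lay just under the lowest control and the other KO livers far under it. The log2 fold change was -1.48 ± 0.38, and -2.11 ± 0.19 without KO liver 1.

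Ces1g (chr8:93302369-93337308), a lipid hydrolase of the endoplasmic reticulum, was at 275, 272 and 281 CPM in the WT Tbg-Cre livers and at 226, 255 and 291 CPM in the floxed Tbg-MCS livers. In KO livers 1 to 4 it was at 231, 101, 83.2 and 52.5 CPM. KO liver 1 overlapped the controls and the other 3 did not. The log2 fold change was -1.19 ± 0.34, and -1.76 ± 0.18 without KO liver 1.

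Ces1c (chr8:93099015-93131283), the plasma carboxylesterase and the most abundant of the genes, was at 2831, 3018 and 3170 CPM in the WT Tbg-Cre livers, 2490, 2827 and 2607 CPM in the floxed Tbg-MCS livers, and 2096, 2245, 2034 and 1749 CPM in the KO livers. All 4 KO livers lay below all controls by a small margin, and KO liver 1 was not apart. The log2 fold change was -0.48 ± 0.12, a KO mean of 71.9% of the control mean, against 18.5% for Ces1b, its closest paralog.

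Ces1f (chr8:93256236-93279747), a second triacylglycerol hydrolase, was at 592, 547 and 589 CPM in the WT Tbg-Cre livers, 566, 543 and 505 CPM in the floxed Tbg-MCS livers, and 586, 419, 384 and 342 CPM in the KO livers. KO liver 1 sat among the highest controls and the other 3 KO livers sat below every control. Its log2 fold change was -0.37 ± 0.14 with all livers and -0.55 ± 0.10 without KO liver 1.

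Ces1d (chr8:93166068-93197838), the triacylglycerol hydrolase that supplies lipid for very low density lipoprotein, behaved differently against each control set. Its level was 989, 853 and 968 CPM in the WT Tbg-Cre livers, 573, 573 and 482 CPM in the floxed Tbg-MCS livers, and 678, 617, 586 and 455 CPM in the KO livers. The KO livers lay below the WT Tbg-Cre livers and overlapped the floxed Tbg-MCS livers. Its log2 fold change was -0.68 ± 0.14 against WT Tbg-Cre and 0.11 ± 0.14 against floxed Tbg-MCS.

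Of the Ces2 genes, Ces2a (chr8:104734003-104741634) was at 375, 289 and 328 CPM in the WT Tbg-Cre livers, 371, 421 and 365 CPM in the floxed Tbg-MCS livers, and 243, 226, 191 and 153 CPM in the KO livers. All KO livers lay below all controls, and the log2 fold change was -0.82 ± 0.15, or 56.7% of the control mean.

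Ces2e (chr8:104926260-104934672) was at 451, 398 and 479 CPM in the WT Tbg-Cre livers, 317, 295 and 351 CPM in the floxed Tbg-MCS livers, and 562, 199, 202 and 142 CPM in the KO livers. KO liver 1 was higher than every control, and the other 3 KO livers were lower than every control. Its log2 fold change of -0.47 ± 0.35 with all livers became -1.08 ± 0.18 without KO liver 1.

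The split within the KO group ran across the family. KO liver 1 had the highest value of the 4 KO livers for 7 of the 10 genes, lay within the control range for 3 (Ces1d, Ces1f and Ces1g) and above it for 1 (Ces2e). KO livers 2 to 4 were all below every control for 8 of the 10. The same counts were not taken over all genes, so the split is not shown to be particular to these genes. For Ces3b, Ces3a and Ces1c, KO liver 1 lay among the other KO livers, at 1.02%, 50.8% and 74.2% of the control mean. Without KO liver 1, 5 of the 10 log2 fold changes were under -1, and the median moved from -0.83 to -0.996. In that run 5 of the 10 were called lower, beside 7.21% of all genes.

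H3f3a was at 16.0 CPM in KO liver 1 and at 18.7, 16.0 and 19 CPM in KO livers 2 to 4, and H3f3b, the other targeted gene, was at 39.8 CPM in KO liver 1 and at 51.8 to 56.7 CPM in the others. KO liver 1 had the shallowest library. Its lymphocyte marker sum was 18.0 CPM against 36.9 to 49.4 CPM in KO livers 2 to 4 and 7.72 to 13.1 CPM in the controls. Its Kupffer marker sum was 554 CPM against 897 to 1237 CPM in the other KO livers. The part of depth or of these cells in the values of KO liver 1 was not tested.

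**Figure D4:**
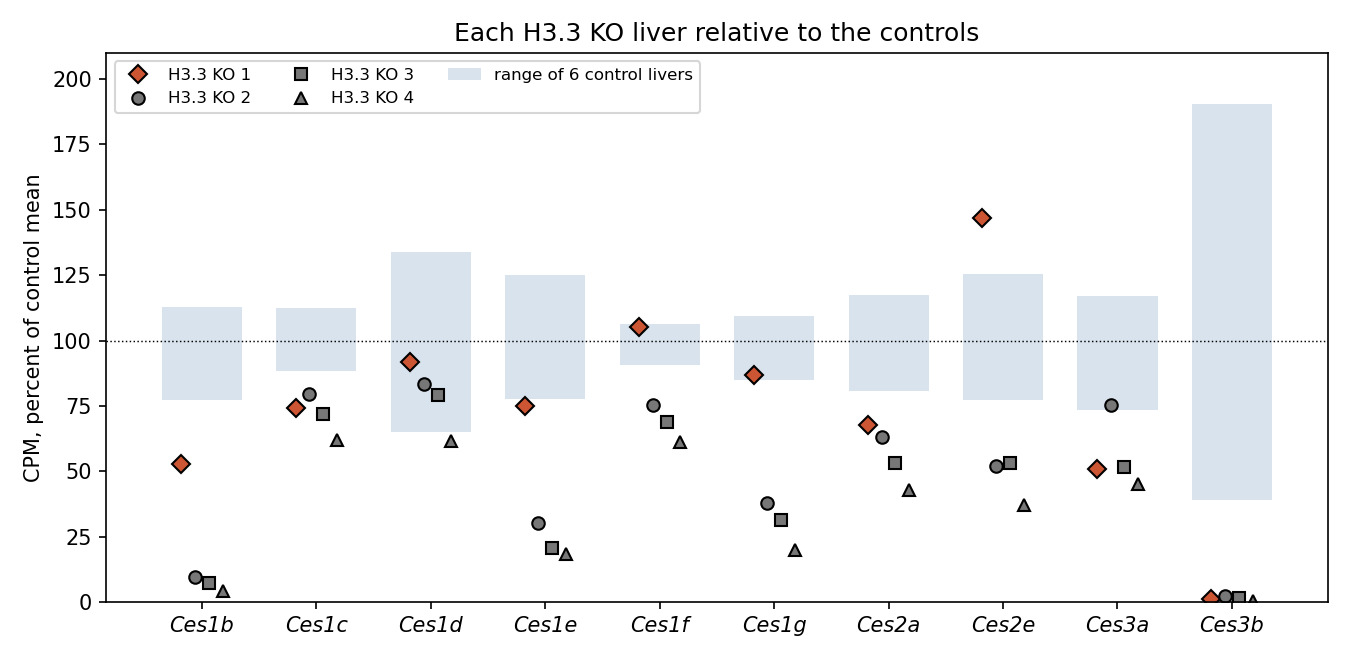
CPM of each KO liver as a percent of the mean of the 6 controls, for each carboxylesterase gene, with the range of the controls shaded. KO liver 1 (diamonds) lies at 74.9% for Ces1e, 86.7% for Ces1g and 147% for Ces2e, where KO livers 2 to 4 lie at 18.5 to 30.0%, 19.7 to 37.7% and 37.1 to 53.0%, but lies at 1.02% for Ces3b.

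Each control set was also compared with KO on its own. These comparisons share the KO livers and are given side by side. Against WT Tbg-Cre, Ces1b and Ces3b were called lower, 2 of 10 beside 5.33% of all genes. Against floxed Tbg-MCS, Ces1e, Ces3a and Ces3b were called lower, 3 of 10 beside 5.54%. For Ces3b the log2 fold changes were -5.60 ± 0.51 and -6.74 ± 0.54, and for Ces1b they were -2.54 ± 0.79 and -2.39 ± 0.79. For Ces3a they were -0.63 ± 0.17 and -1.03 ± 0.17. Of the 10 genes, Ces1d was the exception in sign, with a value above 0 against floxed Tbg-MCS.

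**Figure D5:**
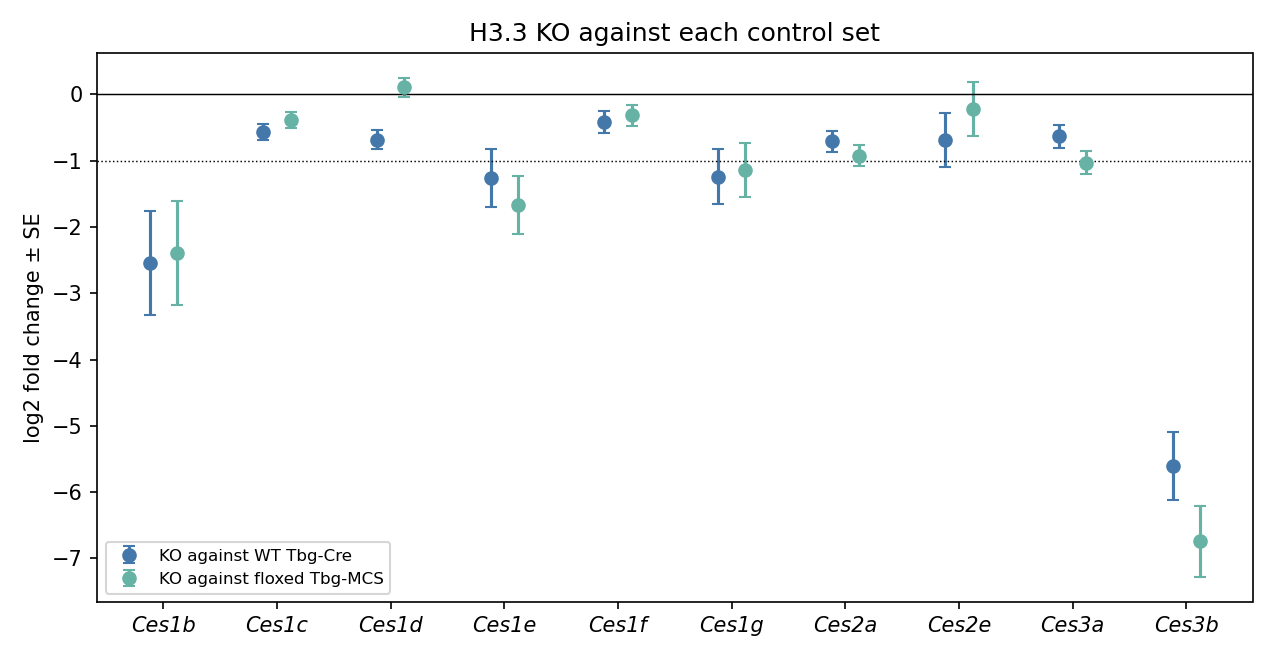
Log2 fold change ± SE of KO against the 3 WT Tbg-Cre livers and against the 3 floxed Tbg-MCS livers for each carboxylesterase gene, with a dotted line at -1. Ces3b lies at -5.60 and -6.74, and Ces1d lies at -0.68 against one control set and 0.11 against the other.

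The control sets differ in genotype and virus, and this contrast did not choose the genes. Ces1d was higher in WT Tbg-Cre livers, at 937 ± 73.0 CPM (SD, n = 3) against 543 ± 52.8 CPM (n = 3), a log2 difference of 0.79 ± 0.15 with an adjusted p of 0.0322 (edgeR). The livers did not overlap, 3 of 3 being higher. It was the 1 member of 10 that passed, beside 0.927% of all genes, and it no longer passed when any 1 control was left out, with edgeR adjusted p from 0.0752 to 0.144, and also without KO liver 2 or 3 (0.0546 and 0.0565). The other 9 had adjusted p of at least 0.436, which does not show that they were alike. For Ces3b the mean was 247 ± 96.0 CPM in WT Tbg-Cre and 543 ± 182 CPM in floxed Tbg-MCS, a log2 difference of -1.14 ± 0.47.

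Without overlap between the control sets were 6 of 10 genes, beside 22.2% of all genes: Ces1c, Ces1d and Ces2e were higher in WT Tbg-Cre livers, and Ces1e, Ces3a and Ces3b were higher in floxed Tbg-MCS livers. All 20 carboxylesterase genes took 0.775 ± 0.0219% of the counts in WT Tbg-Cre and 0.701 ± 0.0483% in floxed Tbg-MCS livers (two-sided exact permutation test, p = 0.2, where the smallest p possible is 0.1). By subfamily, these shares of the raw library totals separated the livers in opposite directions. The 6 Ces1 genes took 0.507 ± 0.0290% in WT Tbg-Cre and 0.392 ± 0.0273% in floxed Tbg-MCS livers, the 2 Ces2 genes took 0.0773 ± 0.00773% and 0.0641 ± 0.00243%, and the 2 Ces3 genes took 0.180 ± 0.0332% and 0.236 ± 0.0201% (exact permutation test, p = 0.1 for each, the smallest possible with 3 against 3). In CPM, which uses normalised library sizes, the Ces1 and Ces3 sums also separated the control sets. The Ces2 sums overlapped there, at 687 to 827 CPM in WT Tbg-Cre and 688 to 716 CPM in floxed Tbg-MCS livers. All 20 together were not compared between the control sets in CPM. In KO livers the raw share of all 20 was 0.520 ± 0.0728% (n = 4), given as a description.

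Among the 10 carboxylesterase genes that were not chosen, 7 were tested in the KO contrast. Ces2c, a hydrolase of drugs and glycerides that lies between Ces2a and Ces2e, was at 38.6 to 56.2 CPM in the controls and at 84.0, 57.3, 57.0 and 48.7 CPM in the KO livers (log2 fold change 0.38 ± 0.15, edgeR adjusted p = 0.0582). With windows of 75 bases, 22.1% of Ces2c was shared with other genes, 21.2% with Ces2d-ps. The part of shared reads in its values was not tested. Ces2g was at 48.2 to 63.6 CPM in the controls and at 69.8, 17.6, 19.6 and 12.3 CPM in the KO livers (-0.86 ± 0.45, edgeR adjusted p = 0.167). Without KO liver 1 the change was -1.70 ± 0.15 with an adjusted p of 2.1e-06 (edgeR), so that liver decided the call. It lay far above the other KO livers, and leaving out a distant liver narrows the spread. This p is therefore a check only.

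Ces4a, beside Ces3b at the end of the second block, fell to the edge of detection. It had 28 counts over the WT Tbg-Cre livers, 109 over the floxed Tbg-MCS livers, and 0, 0, 1 and 2 counts in KO livers 1 to 4. The pooled KO rate was 3.76% of the pooled control rate (95% interval 0.775 to 11%, counting error only), and the gene passed in the KO contrast (edgeR adjusted p = 0.0015). It was also lower in WT Tbg-Cre than in floxed Tbg-MCS livers, by a log2 difference of -2.10 ± 0.39 (edgeR adjusted p = 0.0262), with all 3 livers lower. That second call was lost without any 1 WT Tbg-Cre liver and without floxed Tbg-MCS liver 2 or 3 (edgeR adjusted p from 0.0733 to 0.158). Ces1a passed in the KO contrast as well, on 7 counts in KO against 38 in the controls (edgeR adjusted p = 0.0345), but lost the call without any 1 WT Tbg-Cre liver (0.0545 to 0.0698) and without KO liver 2 or 4 (0.103 and 0.0815). Ces2b, Ces2d-ps and Ces2h did not pass. Ces2h, at 0.335 to 1.07 CPM in the controls, passed without KO liver 1 (-2.72 ± 0.49, edgeR adjusted p = 6.9e-04). KO liver 1 was the distant liver here too, so this is also a check only. Ces1h, Ces2f and Ces5a had 0 to 5 counts a group and were not tested.

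The 12 protein-coding genes nearest to the 2 blocks (3 on each side of each) were taken among genes with at least 10 counts. Of these, 4 were higher in KO, 1 was lower and 7 did not pass (edgeR), beside 19.7% of all genes higher and 16.6% lower. Lpcat2 and Mmp2, on the Ces1b side of the Ces1 block, were higher by 1.67 ± 0.19 and 1.92 ± 0.18 on the log2 scale (edgeR adjusted p = 3.4e-05 and 9.6e-06). D230025D16Rik, 75 kb past Ces4a, was lower by a log2 fold change of -0.995 ± 0.18 (edgeR adjusted p = 0.0011). Cbfb, 20.6 kb past Ces4a, was at 13.1 to 19.7 CPM in the controls and 7.82 to 21 CPM in KO (-0.02 ± 0.22, edgeR adjusted p = 0.967). Rrad and B3gnt9, both under 3 CPM, were the other 2 higher genes.

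Other hydrolases of lipids and foreign compounds were given by 2 lists. In a list of 21 tested lipid hydrolases, 6 were higher, 5 lower and 10 did not pass (edgeR, KO against the 6 controls), beside 19.7% of all genes higher and 16.6% lower, with a median log2 fold change of 0.13. The 2 largest increases were Abhd2, a membrane lipase (3.05 ± 0.37), and Lpl, lipoprotein lipase (2.28 ± 0.29). Aadac, an arylacetamide deacetylase of the endoplasmic reticulum, was the 1 called lower: it was at 597 to 796 CPM in the controls and at 465, 249, 223 and 211 CPM in the KO livers (-1.23 ± 0.21, edgeR adjusted p = 6.3e-04), with KO liver 1 again the highest of the 4. Of 12 xenobiotic hydrolases, Aadac included, 1 was higher, 4 were lower and 7 did not pass, beside the same 19.7% and 16.6%, with a median of -0.37.

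Transcription factors known to act on carboxylesterase or other hepatocyte genes made up a list of 11. Against the 6 controls 5 were lower, none was higher and 6 did not pass (edgeR), beside 16.6% of all genes lower and 19.7% higher, with a median log2 fold change of -0.31. Nfe2l2, which drives antioxidant genes, was higher in KO than in floxed Tbg-MCS livers (1.13 ± 0.13, edgeR adjusted p = 9.0e-05) and was also higher in WT Tbg-Cre than in floxed Tbg-MCS livers (0.99 ± 0.14, edgeR adjusted p = 0.0047). It was named after its values were seen. Nr1i3, the constitutive androstane receptor, was the 1 called, at 60.7 to 132 CPM in the controls and 47.4, 35.6, 31.5 and 20.1 CPM in the KO livers (-1.34 ± 0.26, edgeR adjusted p = 0.0024). Every KO liver was below every control.

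RefSeq promoter windows of GRCm38.p6, from 250 bases before to 50 bases after a gene's start, were matched by symbol for 7 of the 10 genes. Each string was searched on both strands. The letters TTGCNNAA, a C/EBP half-site pair, occurred in Ces1b, Ces1c, Ces2a and Ces2e, against 10.8% of 32851 windows. TATAAA occurred in Ces3b and, on the other strand, in Ces1g, against 13.6%. CAAAGTCCA, an HNF4A motif, and GTTAATNAT, an HNF1 motif, occurred in none of the 7, against 0.475% and 0.801% of windows. A match is a string in a window and was not tied to binding.

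The 5 genes whose profile over the 10 livers lay nearest to that of Ces3b were, among 4199 genes called in the KO contrast, Serpina4-ps1, Rfx4, Dct, Mup17 and Pitx3. The root mean square difference of their log2 CPM from Ces3b, after centring on the controls, was 0.87, 1.15, 1.17, 1.36 and 1.53. The chosen carboxylesterase genes were left out of this ranking, so none of them could appear. Of the carboxylesterase genes that were not chosen, only the 2 called (Ces1a and Ces4a) could appear, and neither did. Both rest on few counts, so nothing is read from their absence.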

How the data were processed

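PolyA RNA was sequenced from 10 mouse livers in 3 groups. Per the labels, the authors used STAR, HTSeq and Cufflinks with mm10, and the paper's methods name HOMER for counting, so which counter made the deposited table is not settled. The deposited counts are whole-number reads per gene, not normalized. The deposited FPKM values were scaled by the authors to transcript length and library depth, and a blank FPKM cell was read as 0. An FPKM of 0 does not mean no expression here. Apob was at 0 FPKM and 4613 CPM in WT Tbg-Cre liver 2. Hnf4a was at 0 FPKM and 400 to 772 CPM in KO livers 2 to 4. Every member was above 0 FPKM in every liver. The handling of multiply mapping reads, the strand setting and the read length are not given in the sources used here. The libraries were made with a strand-specific kit.

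Control columns were matched to samples by the library number in the labels, and the pooled comparison does not depend on that match. Genes with at least 10 counts over the 10 livers were tested with edgeR 4.0.16 (R 4.3.3; trimmed mean of M values, robust quasi-likelihood F test, two-sided, Benjamini-Hochberg over all genes tested, called at an adjusted p below 0.05 with a log2 fold change beyond 1 either way). KO was fitted against 6 pooled controls, and the 3 groups together for single control sets. CPM used the same factors, and SE was the fold change divided by the root of F. DESeq2 1.42.0, other factors and filters, limma 3.58.1 on log2(FPKM + 1) and log2(FPKM + 0.1), and leaving out each liver were alternatives, and limma on summed FPKM was added after seeing the data. Scripts were tested on simulated data. Sequences, exons and shared windows came from GENCODE M21, and promoters from RefSeq (GRCm38.p6). Replicate pairs differed beyond counting noise (chi-square per degree of freedom of 11.6 to 109). Labels do not say more of how replicates were raised, so p-values measure the spread between these livers. Same-numbered livers of different groups did not deviate together (correlation of deviations -0.122 to 0.203 over 9 pairs). The genes and lists were chosen with earlier results of these data known. The named genes were the 10 members, the other 10 carboxylesterase genes, the 12 flanking genes, in each list the 2 called genes with the largest change each way, the targeted genes and the 5 nearest profiles.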

Additional observations from a re-analysis of the deposited data

Results flagged for a closer look

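In 34 groups of 4 or 6 livers (17 carboxylesterase genes, the KO and pooled control groups), 4 held a liver far from the others. Chance flags about 1 in 20 groups when each is independent. The 34 groups reuse the same livers, so the 4 flags cannot be weighed against that rate. All 4 were KO liver 1, on the high side. Ces1b was at 43.9 CPM in that liver and the next KO liver was at 8.03 CPM. Ces2e was at 562 CPM, with the next at 202 CPM. Ces2g was at 69.8 CPM, with the next at 19.6 CPM, and Ces2h was at 2.02 CPM, with the next at 0.158 CPM. The cause was not tested.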

How the results depend on the processing

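Of the 10 members, 4 were called lower against the 6 controls, 7 by the adjusted p alone and 2 to 5 with 1 liver left out. The shares of all genes were 5.79%, 16.6% by the adjusted p alone and 4.74 to 7.21% with 1 liver left out. Leaving out KO liver 3 left 2 (Ces1e and Ces3b), and leaving out KO liver 1 gave 5, with Ces2e added. Against WT Tbg-Cre 2 were called, 4 with DESeq2, filterByExpr or limma at either pseudocount, 1 with no filter beyond 1 count, and 1 to 5 with 1 liver left out (5 without KO liver 1, 1 without any other). Against floxed Tbg-MCS 3 were called, 5 with DESeq2 or filterByExpr and 2 to 5 with 1 liver left out (5 without KO liver 1). Over all genes, 5.33% were called lower against WT Tbg-Cre and 5.54% against floxed Tbg-MCS. For these 2 contrasts the shares were not taken under the alternatives. Between the control sets 1 member differed, and 0 to 1 with 1 liver left out. With the replicate number as a replicate block that count was 2, the calls against the 6 controls went from 4 to 3 (beside 4.21% of all genes), and the Ces2 sum was -0.51. The numbers mark no known litter or day, so this is a check only. The Ces2 sum of -0.63 on the log2 scale was -0.47 with library size only, -0.60 with relative log expression factors, -0.63 with no filter, -0.61 with filterByExpr, -0.54 on summed FPKM, and -0.996 (without KO liver 1) to -0.45 (without KO liver 4) with 1 liver left out. The Ces1 sum of -0.53 was -0.36 with library size only and -0.33 on summed FPKM. Library size only moved the median of all genes to 0.17. No member reversed its direction against the 6 controls under any alternative run. The cause of these shifts was not tested. Depth limits Ces4a, Ces1a, Ces2b, Ces2d-ps and Ces2h, at about 1 CPM or less in the controls.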
